A study of Zea mays with 12 samples.

Results

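The deposited table lists 1788 transcribed loci of the maize genome that carry a running number instead of the identifier of an annotated gene. The 1371 loci described here were chosen by their own counts: each had at least 10 counts in at least 3 of the 12 libraries. They make up 1371 of the 45246 rows of the table, in which 39034 rows are annotated protein-coding genes and 4424 are annotated non-coding genes. At the same count rule 19451 protein-coding and 518 non-coding genes remained. Each locus is called here by its running number in the table, and its coordinates are those of the maize B73 assembly Zm-B73-REFERENCE-NAM-5.0.

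The libraries come from synergid cells of the maize inbred line B73, hand-isolated before pollination (SC, 0 hours after pollination) or, after fertilization, as the persistent synergid cell at 12, 18 and 24 hours after pollination (pSC12, pSC18 and pSC24). Each stage had 3 libraries, and each library pooled 25 to 28 cells, whose polyadenylated RNA was amplified before sequencing. The stage comparisons ask how the transcriptome of the persistent synergid changes on its way to degeneration. Every stage was B73, and no transgene or chemical treatment separated the groups. The labels gave time after pollination and the cell, a synergid cell at 0 hours and the persistent synergid cell later. Between SC and the later stages, time, fertilization and the kind of synergid cannot be told apart.

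Synergids flank the egg cell in the embryo sac; they secrete the peptides that attract the pollen tube, one of them dies when the tube bursts, and the persistent one is removed later. A gene annotation is built from the tissues that were sampled for it, so reads from rare cells can map outside every annotated gene. Such loci can be missed protein-coding genes, long non-coding RNAs, precursors of small RNAs, extensions of a neighbouring transcript, or copies of transposable elements, the mobile sequences that fill most of the maize genome and that plant cells usually keep silent.

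The libraries held 15435736 to 26539602 counts. The synergid marker ZmES4, which encodes a defensin-like peptide, was between 6018 and 13051 FPKM (fragments per kilobase of exon, scaled to library size) in every library, and ZmMYB98, a synergid transcription factor, averaged 1120, 602, 430 and 97.9 FPKM in SC, pSC12, pSC18 and pSC24. Annotated ribosomal protein genes, taken as egg cell or zygote markers, held 0.862 to 0.906% of the counts in SC libraries, 0.991 to 1.18% in pSC12, 1.04 to 1.4% in pSC18 and 1.07 to 1.22% in pSC24, so every library after pollination was above every SC library. Of the 271 tested, 4 were called higher and 3 lower in pSC24 than in SC. In these pooled cells, fewer cells of a type and less RNA per cell cannot be told apart. In the study's mapping statistics the 3 pSC12 libraries and pSC24 replicates 2 and 3 form a set with a higher mapped share than the other 7 libraries, a split that overlaps the stages. Only pSC24 has libraries of both sets. A term for the mapping set is therefore estimated from pSC24 replicate 1 against replicates 2 and 3.

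The loci were spread over all 10 chromosomes, with 103 on chromosome 10 to 174 on chromosome 1, and 24 lay on 17 unplaced scaffolds. Chromosomes 9 and 4 carried 28.5 and 28.9 annotated genes per locus, and chromosome 5 carried 38.2. The median locus had 21 annotated genes within 500 kb of its middle, against 26 other annotated genes around a protein-coding gene that met the same count rule and 27 around a non-coding one. The table put 668 loci on the plus and 703 on the minus strand. The exon length had a median of 1210 bp, with a range of 239 to 21191 bp, against medians of 1988 bp for protein-coding and 806 bp for non-coding genes at the same rule. Of the 1371 loci, 1213 (88.5%) spanned more sequence than their exons and so held at least 1 intron, a share near the 89.6% of the protein-coding genes and above the 55.8% of the non-coding genes at that rule.

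Among the 1347 loci on chromosomes, the nearest annotated gene was at a median distance of 8800 bp. The distance was over 50 kb for 234 loci (17.4%) and at most 1 kb for 250 more (18.6%), and 3 loci overlapped an annotated gene. The 250 close loci fell on both strands and both sides of the gene, with 59 downstream and 50 upstream on its strand and 73 downstream and 68 upstream on the other strand. The counting strand is not given in the sources used here, so the reads of a locus and of an overlapping gene could not be separated. In 70 places 2 or 3 loci lay within 10 kb of each other, 147 loci in all, and these need not be separate transcripts.

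**Figure D1:**
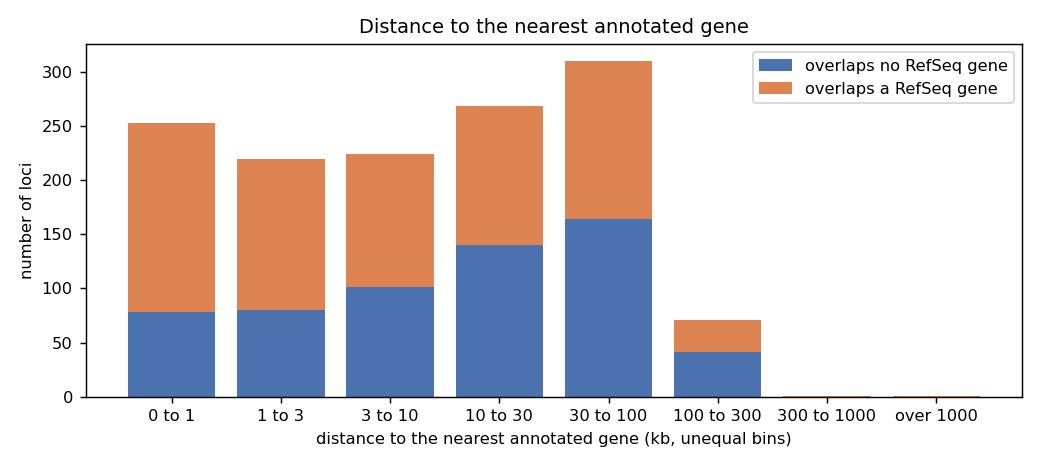
Number of loci (vertical axis) by distance to the nearest annotated gene in kb (horizontal axis, bins of unequal width), with loci that overlap no RefSeq gene in blue and loci that overlap one in orange. The bin from 0 to 1 kb holds 253 loci, 175 of them with a RefSeq gene, and the bin from 30 to 100 kb holds 310, of which 164 overlap no RefSeq gene.

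A second annotation of the same assembly, NCBI RefSeq, covers many of these loci. Of the 1347 loci on chromosomes, 743 (55.2%) overlapped a RefSeq gene by at least 1 base: 380 a protein-coding gene, 264 a long non-coding RNA, 71 a transcribed pseudogene, 20 a pseudogene and 8 another kind. For 505 loci the RefSeq gene covered at least 90% of the span. The other 604 loci (44.8%) overlapped none. Among annotated genes at the same count rule, 98.5% of the protein-coding and 88% of the non-coding ones overlapped a RefSeq gene. Loci that overlapped a RefSeq protein-coding gene had a median mean level of 2.6 FPKM, those over a RefSeq long non-coding RNA 1.49 FPKM and those over none 1.25 FPKM.

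The authors' description column names a similar protein or a protein domain for 366 loci (26.7%), and none for the other 1005. The matches were sorted by a fixed list of words in the description, so a class says which words a match holds and not what a locus encodes. Locus 1420, matched to CHROMATIN REMODELING 5, thus fell among the other matches. The secreted or wall class holds a glycolipid transfer protein match (locus 1683) and a cysteine-rich transmembrane module (locus 1234). The largest named class was transposable elements, with 84 loci. Of these, 41 matched hAT elements, the family of the maize Activator element, 27 matched retroelement proteins, 9 matched En/Spm elements and 7 carried the plant transposon protein domain. Organelle proteins followed with 33 loci, transcription factors or chromatin proteins with 29, protein turnover with 20, ribosomal proteins with 19, kinases or receptors with 12 and secreted or wall proteins with 3. The remaining 166 had other matches. A RefSeq gene lay over 95% of the protein turnover and 89.5% of the ribosomal protein matches, but over 52.4% of the transposable element matches and 45.7% of the loci without a match.

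Most loci were weakly transcribed. Their mean over the 12 libraries had a median of 1.6 FPKM, against 4.95 FPKM for protein-coding and 2.1 FPKM for non-coding genes at the same rule, and the median locus had 51.4 counts per library, against 222 for a protein-coding gene. At least 10 FPKM was reached by 151 loci and at least 100 FPKM by 14. Together the loci took 1.2 to 1.55% of the counts of a library, with stage means of 1.35 ± 0.11, 1.52 ± 0.035, 1.29 ± 0.076 and 1.33 ± 0.069% from SC to pSC24 (SD, n = 3 each).

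The most abundant locus was locus 1283 (chr7:13495652-13496569, plus strand), whose protein match is MATERNALLY EXPRESSED GENE 1, in maize a small cysteine-rich peptide of the endosperm transfer cells that takes part in nutrient uptake. It stood at 1117, 1479 and 2013 FPKM in SC, 973, 1010 and 991 FPKM in pSC12, 870, 966 and 1136 FPKM in pSC18, and 1076, 1004 and 1609 FPKM in pSC24. The libraries of all stages overlapped except those of SC and pSC12, and none of the 4 comparisons was called. A RefSeq protein-coding gene covered 84.5% of its span, and it alone took 4.37 to 7.49% of the counts on these loci. As MEG1-like peptides are encoded by a gene family, reads of near-identical copies could have been divided among rows.

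Locus 750 (chr4:49954752-49957199, plus strand) followed, with no protein match, a RefSeq protein-coding gene over 94.1% of its span and 51427 bp to the nearest annotated gene. Its levels were 751, 697 and 929 FPKM in SC, 507, 543 and 611 FPKM in pSC12, 438, 583 and 519 FPKM in pSC18, and 498, 475 and 764 FPKM in pSC24, with no call in any comparison. Locus 408 (chr2:139789437-139790232, plus strand) lay over a RefSeq long non-coding RNA. It had 293, 312 and 329 FPKM in pSC12, against 613, 651 and 783 FPKM in SC, and was called lower at pSC12 (log2 fold change -1.13 ± 0.23 SE, edgeR adjusted p = 0.0156). This call was lost without SC replicate 3 (-1.03, edgeR adjusted p = 0.0617), pSC12 replicate 1 (-1.09, 0.0625) or pSC12 replicate 2 (-1.13, 0.0602), and when libraries were scaled to their totals. In pSC24 it had 519, 251 and 549 FPKM, all below the SC libraries but not called (edgeR adjusted p = 0.0523).

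The next were locus 756 (chr4:68812024-68815257, plus strand), which overlapped no RefSeq gene and lay 140095 bp from the nearest annotated gene, and locus 785 (chr4:158883063-158884635, plus strand), matched to a 16 kDa phloem protein. Locus 756 averaged 296 ± 50, 244 ± 17.7, 227 ± 20.4 and 312 ± 81.1 FPKM in SC, pSC12, pSC18 and pSC24 (SD, n = 3 each), and its pSC24 and SC libraries overlapped. Locus 785 had 226, 218 and 235 FPKM in pSC24 against 298, 289 and 304 FPKM in SC, groups that did not overlap. The difference had an edgeR adjusted p of 0.0122 but, at -0.40 ± 0.10 on the log2 scale, was below the size of 1 required for a call. Locus 276 (chr10:146172859-146173982, plus strand), matched to a cold shock domain protein, a family that binds nucleic acids, completed the 3 most abundant loci over 50 kb from an annotated gene. Its 438 FPKM in pSC18 replicate 3 stood apart from 85.7 and 108 FPKM in the other pSC18 libraries, and SC, pSC12 and pSC24 libraries lay between 71.4 and 111 FPKM.

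**Figure D2:**
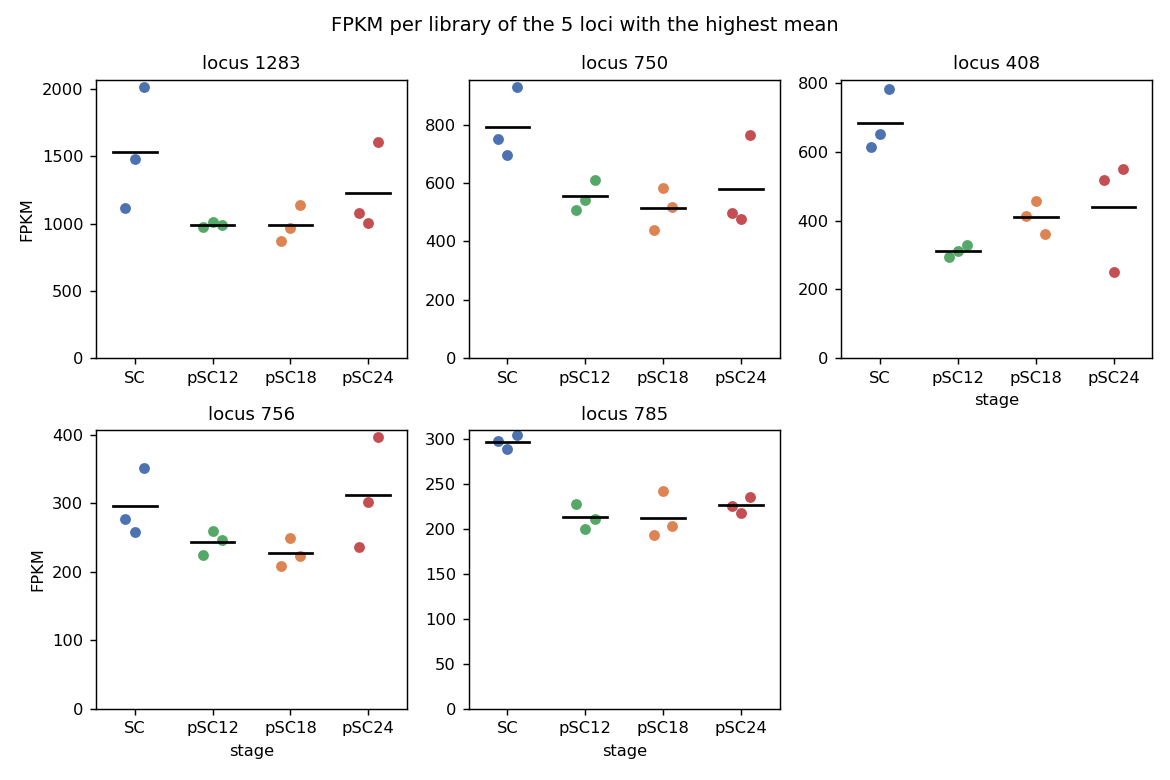
FPKM (vertical axes, each from 0) of the 5 loci with the highest mean, by stage (horizontal axes); points are libraries, 3 per stage, and the black lines are stage means. Locus 1283 reaches 2013 FPKM in an SC library, the pSC12 libraries of locus 408 lie between 293 and 329 FPKM, and locus 785 lies between 193 and 304 FPKM throughout.

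Most of the leading loci of the protein match classes were not called. Locus 939 (chr4:245448841-245450262), a polyubiquitin match and so a precursor of several ubiquitin units, had 177, 222 and 185 FPKM in pSC24 against 133, 130 and 129 FPKM in SC, without overlap but with a log2 difference of 0.56 ± 0.12, below the size for a call. Locus 1749 (scaffold scaf_22, 314852 to 317552), matched to HRD1, the ubiquitin ligase of endoplasmic reticulum-associated degradation, averaged 111 ± 19.1 FPKM in pSC24 and 150 ± 8.24 FPKM in SC (SD, n = 3 each). The ribosomal protein matches with the highest levels, locus 1030 for L39 and locus 1762 for S26, averaged 23.1 ± 5.85 and 22.9 ± 3.31 FPKM in pSC24, against 24.4 ± 4.99 and 22.2 ± 2.58 FPKM in SC. Polyubiquitin and ribosomal protein genes have many near-identical copies, so how reads were divided among copies could change these values.

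Locus 323 (S1FA2, a small DNA-binding protein) averaged 47.7 ± 6.9 FPKM in pSC24 and 61.4 ± 6.12 FPKM in SC. Locus 204, with the domains of dihydroxyacetone kinase, averaged 15.1 ± 2.31 FPKM in pSC24 and 20.1 ± 2.33 FPKM in SC, and locus 273, matched to a cyclin-dependent kinase, 12.1 ± 3.55 FPKM in pSC24 and 8.72 ± 0.746 FPKM in SC. Locus 1294 (DCL homolog, a chloroplast protein) averaged 28.1 ± 4.4 FPKM in pSC24 and 35.7 ± 3.97 FPKM in SC. Locus 1683, a glycolipid transfer protein match, stayed near 1 FPKM. None of these 5 was called in any of the 4 comparisons.

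Among the other class leaders, locus 583 fell and locus 1234 rose. Locus 583 (chr3:130418881-130422941, plus strand), matched to subunit 5C of cytochrome c oxidase, the last complex of the respiratory chain, had 18.7, 13.6 and 22.8 FPKM in pSC24, against 59.9, 66.5 and 82.5 FPKM in SC. It fell by 1.94 ± 0.23 on the log2 scale (edgeR adjusted p = 7.65e-05), with pSC12 and pSC18 libraries between both groups. Locus 1234 (chr6:80406421-80408373, minus strand) carries the cysteine-rich transmembrane module found in small stress tolerance proteins. It had 83.8, 202 and 202 FPKM in pSC24, against 42.9, 31.5 and 41.3 FPKM in SC, and rose by 2.06 ± 0.34 (edgeR adjusted p = 0.000677). Its stage means of 38.6, 58, 83 and 162 FPKM stood in the order of time.

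Between pSC24 and SC the loci leaned downward while the table as a whole leaned upward. Of the 1338 loci that passed the low-count filter, 50 (3.74%) were called higher in pSC24 and 166 (12.4%) lower, a call being an edgeR adjusted p under 0.05 over all rows tested with a log2 fold change over 1 in size. Among all 21143 rows tested, 10.3% were called higher and 7.57% lower. The median log2 fold change was -0.39 over the loci and 0.05 over all rows. Most of the loci called lower were counted throughout, since 142 of the 166 (85.5%) had at least 10 counts in some library of every stage. This held for 79.5% of all 1371 loci and was not counted among all rows called lower. For 164 of the 166 (98.8%) the pSC24 and SC libraries did not overlap, as for 99.2% of all rows called lower. Since a locus that is high in 1 stage can pass the count rule through that stage alone, these counts describe the loci that passed. In 91 of the 166, the 4 stage means stood in falling order of time. That order was not counted among all rows called lower, and the call itself already places pSC24 below SC. The summed share of the ribosomal protein genes also differed between these stages (1.07 to 1.22% in pSC24 libraries, against 0.862 to 0.906% in SC libraries), and its part in the counts of calls was not tested.

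These counts changed with the scaling and with a term for the mapping set. With that term, pSC24 vs SC rests on pSC24 replicate 1 against the SC libraries. An effect of the mapping set therefore cannot be told apart from a difference between the pSC24 libraries. With libraries scaled to their totals, which raised the median of all rows to 0.28, the loci had 72 higher and 123 lower calls and a median of -0.16. These calls were 5.38% and 9.19% of the loci tested, beside 13.8% and 5.29% of all rows. Higher calls then made up 36.9% of the calls on the loci, against 23.1% in the main fit. With the mapping set as a term, 29 loci were called higher and 76 lower. Those were 2.17% and 5.68% of the loci tested, beside 6.39% and 5.57% of all rows, so the share of lower calls was then near that of the table. Loci 130, 326, 457, 1381, 1462 and 1536, described below, lost their pSC24 call with this term (edgeR adjusted p = 0.054 to 0.168).

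The lean was also there at like depth. The middle 50% of the tested loci had a mean between 0.916 and 7.64 CPM (counts scaled to library size). Of the 668 loci in that range 3.74% were called higher and 14.1% lower, with a median log2 fold change of -0.42. Of the 6270 annotated genes in it 13.2% were called higher and 5.39% lower, with a median of 0.25.

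**Figure D3:**
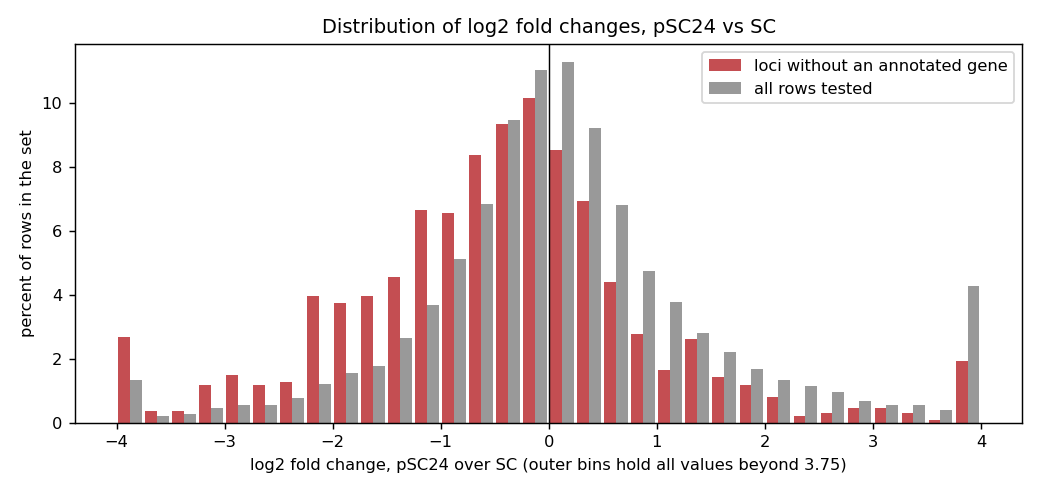
Percent of rows (vertical axis) by log2 fold change of pSC24 over SC (horizontal axis, bins of 0.25, outer bins holding all values beyond), for the 1338 loci without an annotated gene in red and all 21143 rows tested in grey. The red bars exceed the grey ones in every bin below -0.5 and lie under them in every bin above 0, with medians of -0.39 and 0.05.

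The calls were also counted by RefSeq overlap, beside 10.3% higher and 7.57% lower calls among all rows. Of the 586 tested loci without a RefSeq gene, 12 (2.05%) were called higher and 104 (17.7%) lower, with a median log2 fold change of -0.78. Of the 377 over a RefSeq protein-coding gene, 20 (5.31%) were called higher and 35 (9.28%) lower (median -0.14), and of the 253 over a RefSeq long non-coding RNA, 10 and 20 (median -0.25). Of 71 loci over transcribed pseudogenes 6 (8.45%) were called higher and 2 (2.82%) lower (median -0.12), and of 20 over other pseudogenes 0 and 4 (20%; median -0.83). Among loci with at least 10 counts in a library of every stage, those without a RefSeq gene had 8 higher and 81 lower calls of 435. The counts without a RefSeq gene were 18 higher and 84 lower of 586 with libraries scaled to their totals. With the mapping set term they were 7 and 49. For loci over RefSeq protein-coding genes the order turned with scaling to totals, to 30 higher and 22 lower of 377. Among all rows, 13.8% were called higher and 5.29% lower with scaling to totals, and 6.39% and 5.57% with the mapping set term. The difference between these classes was not tested.

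Read as a share of all counts, loci without a RefSeq gene took 0.479 ± 0.051, 0.563 ± 0.015, 0.434 ± 0.035 and 0.395 ± 0.024% from SC to pSC24 (SD, n = 3 each). The pSC12 libraries, from 0.552%, were above every SC library, and the pSC24 libraries, up to 0.422%, were below every SC library. Loci over RefSeq protein-coding genes took 0.61 ± 0.042, 0.658 ± 0.011, 0.609 ± 0.045 and 0.66 ± 0.033%.

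**Figure D4:**
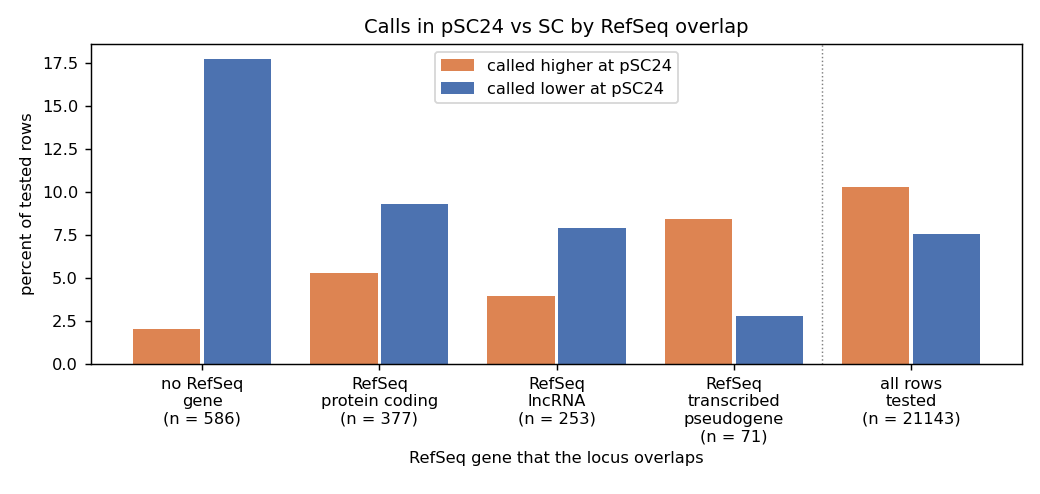
Percent of tested rows (vertical axis, from 0) called higher (orange) or lower (blue) in pSC24 than in SC, for loci grouped by the kind of RefSeq gene they overlap and, right of the dotted line, for all 21143 rows tested. Loci without a RefSeq gene show 17.7% lower and 2.05% higher calls, all rows 7.57% lower and 10.3% higher.

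Loci matched to transposable elements had 4 higher (4.76%) and 18 lower (21.4%) calls of 84 (median log2 fold change -0.17), against 10.3% and 7.57% of all rows. When libraries were scaled to their totals they had 6 and 14, beside 13.8% and 5.29% of all rows. With the mapping set term they had 2 and 6, which was 2.38% and 7.14%, beside 6.39% and 5.57% of all rows. By family, 8 of 27 retroelement matches, 6 of 41 hAT matches and 4 of 9 En/Spm matches were called lower, with 2, 2 and 0 called higher. The 84 loci together took 0.0997 ± 0.0057, 0.142 ± 0.0057, 0.114 ± 0.0032 and 0.103 ± 0.0045% of the counts from SC to pSC24 (SD, n = 3 each). The lowest pSC12 library, at 0.136%, was above every library of the other stages. All 3 pSC12 libraries belong to the higher mapping set, and the part of that set in this value was not tested.

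Single loci of this class went both ways. Locus 947 (chr5:9025859-9029930, plus strand) matched RICESLEEPER, in rice a protein derived from a hAT transposase, and had 1.67, 2.46 and 2.92 FPKM in pSC24, against 12.4, 9.38 and 8.95 FPKM in SC (log2 fold change -2.13 ± 0.27, edgeR adjusted p = 0.000122). A RefSeq protein-coding gene covered 99.2% of the span of locus 947. Its pSC12 and pSC18 libraries, between 7.28 and 14 FPKM, were all above those of pSC24, and the drop against pSC18 was called too (-2.02 ± 0.27, edgeR adjusted p = 0.000647). Locus 633 (chr3:6715932-6718713, minus strand), an Activator transposase match over a RefSeq transcribed pseudogene, rose. It had 33.1, 33.2 and 32.4 FPKM in pSC24, against 17.9, 12.8 and 11.7 FPKM in SC (1.21 ± 0.24, edgeR adjusted p = 0.00286), and already 31.7 to 32.5 FPKM in pSC12. Locus 1249 (chr6:123914802-123920549, minus strand), matched to a retrovirus-related polyprotein and the most abundant of the class, had 21.9, 25.4 and 41.7 FPKM in pSC24, overlapping the 29.6, 29 and 40.2 FPKM in SC, and was not called.

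Of the other classes, loci without a protein match had 31 higher (3.18%) and 120 lower (12.3%) calls of 975, and other matches 11 (6.71%) and 19 (11.6%) of 164, against 10.3% and 7.57% of all rows. Transcription factor or chromatin matches had 0 and 4 of 29, organelle matches 2 and 1 of 32, kinase or receptor matches 1 and 2 of 12, and protein turnover and ribosomal protein matches 0 and 1 each, of 20 and 19.

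Among called loci whose higher stage averaged at least 5 FPKM and whose libraries did not overlap, the 3 largest falls between pSC24 and SC were in loci with neither a protein match nor a RefSeq gene. Locus 1718 (chr9:111218141-111222232, minus strand) had 0.186, 0.262 and 0.635 FPKM in pSC24, against 4.97, 4.46 and 7.03 FPKM in SC (log2 fold change -3.92 ± 0.63, edgeR adjusted p = 0.000639), and its pSC12 and pSC18 libraries, from 0.859 to 2.05 FPKM, lay between both groups. Locus 130 (chr1:53818427-53819783, minus strand) had 0.355, 0 and 0.679 FPKM in pSC24 and 4.21, 5.65 and 5.59 FPKM in SC (-3.91 ± 0.91, edgeR adjusted p = 0.00676). In both loci the groups were far apart. Locus 1462 (chr8:97385215-97386165, plus strand) had 0, 0.297 and 0.084 FPKM in pSC24 and 1.56, 3.29 and 11.7 FPKM in SC (-5.29 ± 1.40, edgeR adjusted p = 0.0134), a call that was lost without SC replicate 3 (-4.09, edgeR adjusted p = 0.0878). Its neighbour Zm00001eb347670, a PRA1 family match 1164 bp away, was called higher.

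Locus 5 (chr1:11067611-11071689, plus strand) had a higher level than these. It had 13.7, 6.75 and 23.1 FPKM in pSC24 and 75.2, 106 and 130 FPKM in SC, a fall of 2.86 ± 0.37 on the log2 scale (edgeR adjusted p = 0.000126). The stage means were 104, 41.7, 32.6 and 14.5 FPKM, and the libraries of pSC12 (34.9, 44.4 and 45.9 FPKM) were all below those of SC. That first step was called (-1.31 ± 0.35, edgeR adjusted p = 0.0454), but not when any library of SC or pSC12, pSC18 replicate 2 or 3, or pSC24 replicate 1 was left out (-1.50 to -1.12, edgeR adjusted p = 0.0527 to 0.159).

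By the same selection, the 3 largest rises started from loci without a single count in SC. These loci had at least 10 counts in the pSC24 libraries only. They thus passed the count rule through the stage in which they are high, and their values describe loci chosen in this way. Locus 124 (chr1:33797049-33798682, minus strand), over a RefSeq transcribed pseudogene, had 12.4, 27.2 and 42 FPKM in pSC24 and 0 in each SC and pSC12 library, and at most 0.101 FPKM in pSC18. Against a floor of 3 counts per SC library it was at least 225-fold higher in pSC24 (edgeR adjusted p = 5.53e-05). Locus 1334 (chr7:167439240-167439874, plus strand), with 9.52, 7.43 and 27.2 FPKM in pSC24 and 0 in each SC library, was at least 52.4-fold higher (edgeR adjusted p = 0.000985). Locus 457 (chr2:23632677-23633929, minus strand) had 0.588, 17.7 and 5.01 FPKM in pSC24 and 0 in each SC library, at least 36.8-fold higher (edgeR adjusted p = 0.0176). Its pSC24 libraries differed widely, and the call was lost without pSC24 replicate 2 (edgeR adjusted p = 0.0694).

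Loci 124, 1334 and 457 all lay close to an annotated gene on the same strand. A RefSeq protein-coding gene covered 61.1% of the span of locus 1334 and 99.8% of that of locus 457. The neighbour of locus 457, Zm00001eb075370, lay 120 bp away and was not called, with 0.534 FPKM in pSC24 and 0.645 FPKM in SC. The neighbour of locus 124, Zm00001eb010590, lay 944 bp away, matched a subunit of the chloroplast Clp protease and was not called, with 1.8 FPKM in pSC24 and 3.96 FPKM in SC. The neighbour of locus 1334, Zm00001eb324600, 290 bp away and matched to a Scarecrow-like protein, was at 1.27 FPKM in pSC24 and 0.145 FPKM in SC. In all, 10 of the 50 loci called higher had at most 3 counts in every SC library, and 15 of the 166 called lower had at most 3 in every pSC24 library. The same was not counted over all called rows, so these counts do not set the loci apart.

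**Figure D5:**
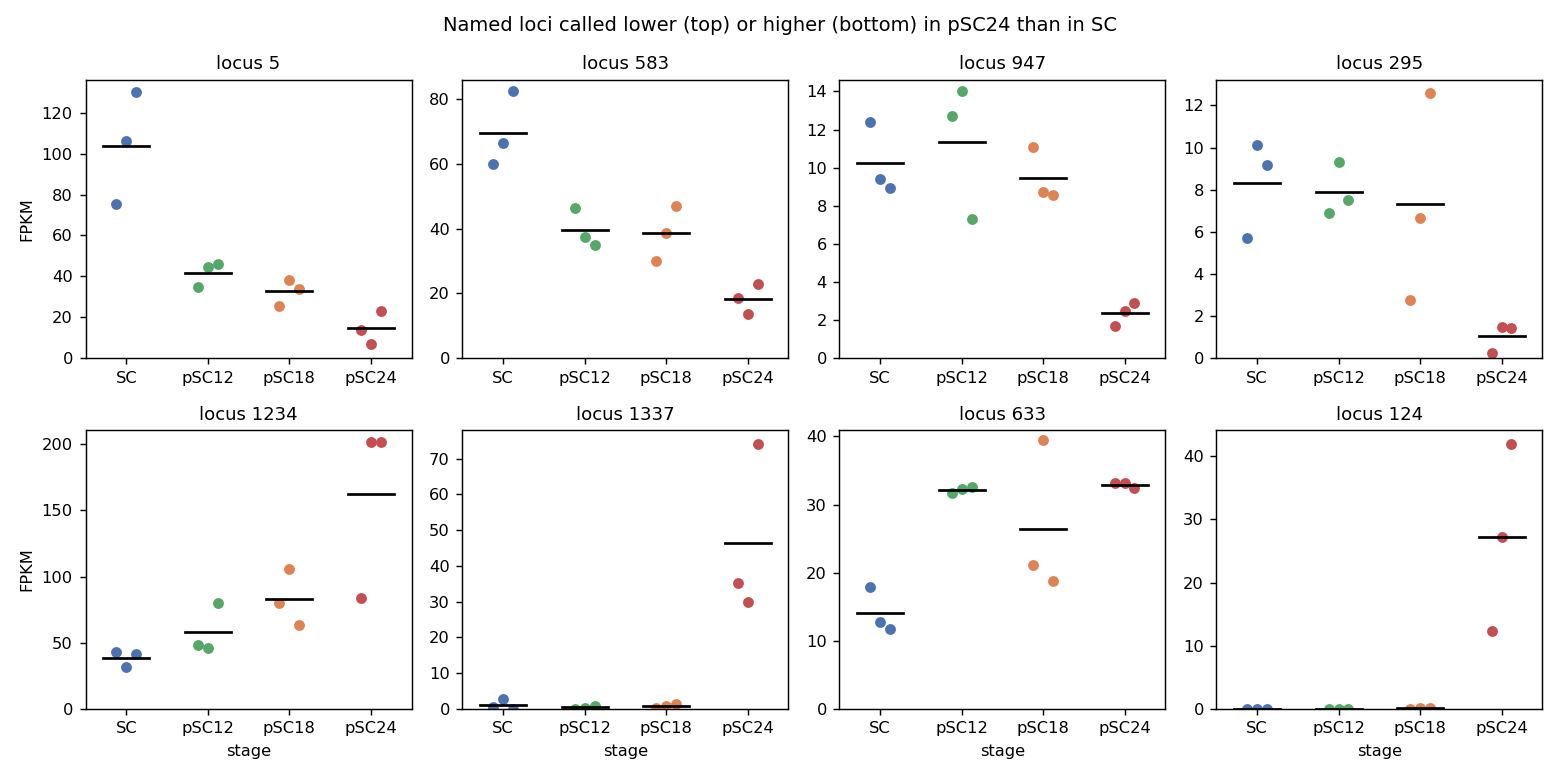
FPKM (vertical axes, each from 0) by stage (horizontal axes) for 4 named loci called lower (top) and 4 called higher (bottom) in pSC24 than in SC; points are libraries, 3 per stage, and the black lines are stage means. Locus 5 has stage means of 104, 41.7, 32.6 and 14.5 FPKM, whereas locus 124 is at 0 in all SC libraries and reaches 12.4, 27.2 and 42 FPKM in pSC24.

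Between pSC24 and pSC18, 20 loci (1.49%) were called higher and 58 (4.33%) lower, against 4.82% and 3.26% of all rows tested. The median log2 fold change was -0.15 over the loci and -0.01 over all rows. The lower count went to 31 without pSC24 replicate 2, to 34 without pSC18 replicate 2 and to 37 without pSC18 replicate 1 or 3. For this comparison the shares of all rows were not counted with a library left out or under the alternatives that follow. With DESeq2 on the 12 libraries the counts were 39 and 103, and with the mapping set term 10 and 25.

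Locus 1337 (chr7:177451772-177452688, plus strand) showed one of the largest rises of this last step. It matched LTI6A, in rice a small hydrophobic membrane protein named for its induction by low temperature, and had 35.3, 29.9 and 74.2 FPKM in pSC24, against 0.318, 0.741 and 1.24 FPKM in pSC18 (log2 fold change 5.86 ± 1.10, edgeR adjusted p = 0.00411). The libraries of SC and pSC12 held at most 2.61 FPKM. Locus 124 and locus 1334, which passed the count rule through pSC24 alone, were the others. Locus 124 had 3023 counts in the pSC24 libraries and 6 in the pSC18 libraries, a ratio of 390 per library size (95% exact binomial interval 179 to 1064, for counting error only; edgeR adjusted p = 0.000309). Locus 1334 had a log2 fold change of 6.45 ± 1.08 (edgeR adjusted p = 0.00572) over pSC18 libraries that held at most 0.313 FPKM.

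Falls from pSC18 included locus 254 (chr10:103563971-103567912, plus strand), with stage means of 6.97, 15.1, 5.06 and 0.73 FPKM. Neither of the first 2 steps was called (edgeR adjusted p = 0.161 for pSC12 vs SC and 0.163 for pSC18 vs pSC12). It had 0.451, 1.01 and 0.73 FPKM in pSC24 against 2.07, 6.97 and 6.13 FPKM in pSC18 (-2.79 ± 0.47, edgeR adjusted p = 0.00241). Locus 295 (chr10:37994164-38004380, minus strand), 67775 bp from the nearest annotated gene, had 0.227, 1.48 and 1.44 FPKM in pSC24 and 2.74, 6.64 and 12.6 FPKM in pSC18 (-2.81 ± 0.61, edgeR adjusted p = 0.00955). Neither overlapped a RefSeq gene, and in both no pSC24 library reached the lowest pSC18 library.

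Between pSC12 and SC, 9 loci were called higher and 7 lower, 0.673% and 0.523% of the loci tested, against 1.62% and 1.18% of all rows. The counts were unstable. They were 22 and 26 with DESeq2 on the 12 libraries, 35 and 4 with libraries scaled to their totals, and 0 and 0 with the mapping set term in edgeR, where 57 loci were higher and 75 lower at an unadjusted p under 0.05. The main fit had 85 and 84 at that level, which was 6.35% and 6.28% of the loci tested, against 9.92% and 10.2% of all rows. The share of all rows was not counted under these alternatives or with a library left out, so the shifts may not be particular to the loci. All pSC12 libraries lie in the higher mapping set and no SC library does. The mapping set term here takes its size from the pSC24 libraries alone. The higher count went to 3 and 4 without SC replicates 2 and 3. The lower count went to 3, 3 and 4 without SC replicates 1, 2 and 3, and to 3 and 2 without pSC12 replicates 1 and 2.

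By the same selection, the 3 largest rises were locus 1385 (chr7:130374659-130377002, minus strand), locus 1420 (chr7:180354895-180374922, minus strand) and locus 350 (chr2:4397170-4400265, plus strand). Locus 1420 matched CHROMATIN REMODELING 5, an ATPase that moves nucleosomes, and had 14.1, 12.9 and 12 FPKM in pSC12, against 4.79, 5.56 and 4.56 FPKM in SC (1.40 ± 0.22, edgeR adjusted p = 0.00407). Locus 1385, over a RefSeq long non-coding RNA, had 11, 10.6 and 13.2 FPKM in pSC12 and 5.25, 2.58 and 3.69 FPKM in SC (1.60 ± 0.31, edgeR adjusted p = 0.0112). It was not called without SC replicate 2 (1.37, edgeR adjusted p = 0.0579) or 3 (1.56, 0.0568). Locus 350, over another RefSeq long non-coding RNA, had 9.95, 7.49 and 13.6 FPKM in pSC12 and 3.88, 4.16 and 5.41 FPKM in SC (1.21 ± 0.25, edgeR adjusted p = 0.0155), and was not called without SC replicate 1 (1.11, edgeR adjusted p = 0.073), SC replicate 2 (1.15, 0.0764) or pSC12 replicate 3 (0.97, 0.0577). In pSC18 locus 1385 had 6.84, 7.22 and 6.14 FPKM, all below its pSC12 libraries, and locus 350 had 8.03, 10.5 and 10.3 FPKM. Both were called higher in pSC24, with 13.2 ± 2.62 and 11.8 ± 1.02 FPKM, than in SC, with 3.84 ± 1.34 and 4.49 ± 0.815 FPKM (SD, n = 3 each).

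Locus 134 (chr1:74921736-74922548, minus strand), a match to metallothionein, a small metal-binding protein, was low in the middle of the series. It had 1.28, 0.542 and 1.44 FPKM in pSC12, against 8.25, 4.96 and 8.64 FPKM in SC (-2.73 ± 0.52, edgeR adjusted p = 0.0114). That call, like all calls of that comparison, was lost with the mapping set term. In pSC24 locus 134 had 23.9, 16.5 and 16.4 FPKM, against 1.65, 1.43 and 4.41 FPKM in pSC18 (2.90 ± 0.52, edgeR adjusted p = 0.00309). Its pSC24 libraries were above those of every other stage, but the difference from SC was not called (1.36 ± 0.49, edgeR adjusted p = 0.0545). Locus 1596 (chr9:3939730-3940356, plus strand), over a RefSeq protein-coding gene, had 0, 0.0633 and 0 FPKM in pSC12 and 9.63, 4.89 and 2.67 FPKM in SC. In pSC18 it was at 5.43, 13.7 and 8.17 FPKM again, and in pSC24 at 6.32, 0 and 8.93 FPKM. Its pSC12 call (edgeR adjusted p = 0.0232) was lost without SC replicate 1 (0.0646), SC replicate 2 (0.0565) or any pSC12 library (0.0777 to 0.093).

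Between pSC18 and pSC12, edgeR called no locus higher and no locus lower, against 0.0189% and 0.00473% of all rows. At an unadjusted p under 0.05, 34 loci were higher and 104 lower in pSC18, which was 2.54% and 7.77% of the loci tested, against 7.91% and 4.73% of all rows. DESeq2 on the 12 libraries called 5 and 14, and DESeq2 on the 6 libraries 5 and 18. For this comparison the shares of all rows were not counted with DESeq2. The median log2 fold change was -0.23 over the loci and 0.03 over all rows. Over the 4 comparisons 1103 of the 1338 tested loci (82.4%) had no call. The same share was not counted over all rows tested, so it does not set the loci apart.

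For 703 loci both the locus and its nearest annotated gene were tested. In 203 of these pairs (28.9%) the change between pSC24 and SC differed between the locus and its neighbour by more than 1 on the log2(CPM + 1) scale at a limma adjusted p under 0.05, against 28.8% of all 11696 pairs of a row with its nearest annotated gene, so the loci did not stand apart here. Over the 12 libraries, which share stages and depth, the correlation of a locus with its neighbour had a median of 0.06, against 0.05 over all pairs. It was 0.14 for 70 pairs within 1 kb on the same strand, 0.15 for 95 pairs within 1 kb on opposite strands and -0.05 for 109 pairs over 50 kb apart. Of 127 called loci with a tested neighbour, 17 (13.4%) had a neighbour called in the same direction, 12 (9.45%) one called in the opposite direction and 98 (77.2%) one without a call. Over all pairs with a called row these shares were 12.7%, 6.73% and 80.6%.

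The 3 opposite pairs with the largest changes were all falling loci without a protein match or a RefSeq gene beside a rising gene. Locus 1536 (chr8:85548349-85549605, minus strand) had 0.0876, 0 and 0 FPKM in pSC24 and 1.65, 3.3 and 1.25 FPKM in SC, and was called lower (edgeR adjusted p = 0.00857). It had 2 counts in the pSC24 libraries and 107 in the SC libraries, a ratio of SC over pSC24 of 78.2 per library size (95% exact binomial interval 21.1 to 654, for counting error only). Its neighbour Zm00001eb346150, 46339 bp away, matches trans-cinnamate 4-monooxygenase, an enzyme of phenylpropanoid synthesis, and had 3.33, 2.75 and 5.37 FPKM in pSC24, against 0.197, 0.474 and 0.482 FPKM in SC (3.29 ± 0.60, edgeR adjusted p = 0.00136). Locus 533 (chr2:225917283-225922026, minus strand) had 0.326, 0.73 and 0.848 FPKM in pSC24 and 2.58, 2.14 and 2.16 FPKM in SC (-1.86 ± 0.51, edgeR adjusted p = 0.0167). It was not called without SC replicate 1 (-1.75, edgeR adjusted p = 0.059) or pSC24 replicate 1 (-1.55, 0.0538). Its neighbour Zm00001eb112210, a carboxylesterase match 18738 bp away, had 10.9, 4.67 and 12.5 FPKM in pSC24 and was listed at 0 in all SC libraries. Locus 1381 (chr7:113814717-113815433, minus strand) had 0 counts in the pSC24 libraries and 1.15, 0.948 and 0.39 FPKM in SC, at least 4.88-fold lower against a floor of 3 counts per pSC24 library (edgeR adjusted p = 0.0124). Its neighbour Zm00001eb312210, matched to a phosphatidylinositol phosphate kinase and 90754 bp away, had 1.72, 1.99 and 1.82 FPKM in pSC24 and 0.14, 0.0943 and 0.275 FPKM in SC.

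One locus lay next to a gene that the study names. Locus 189 (chr1:230309972-230310702, minus strand), 199 bp from ZmSC21 (Zm00001eb043890) on the opposite strand, had 0.0617, 0.0993 and 0.956 FPKM in pSC24 and 1.21, 2.11 and 1.22 FPKM in SC and was not called (-2.02 ± 1.13, edgeR adjusted p = 0.214). ZmSC21 had 2744, 3251 and 3925 FPKM in pSC24, against 9464, 10495 and 11346 FPKM in SC, and was called lower (-1.67 ± 0.14, edgeR adjusted p = 5.96e-06). Over the 12 libraries the correlation of the pair was 0.72, and the part of reads from the abundant gene in the counts of the locus was not tested.

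MicroRNAs are cut from longer polyadenylated transcripts, and 7 loci, picked out after their values were seen, overlapped a RefSeq microRNA gene. They were locus 213 (MIR167d), locus 326 (MIR2118c), locus 641 (MIR159f), locus 802 (MIR396a), locus 857 (MIR169e and MIR169h), locus 941 (MIR168b) and locus 1091 (MIR827), with means over the 12 libraries between 0.377 and 2.02 FPKM. The overlap was taken over the whole span, introns included, and without strand, so these values need not be those of microRNA precursors. Locus 857, for example, had 1566 bp of exon in a span of 20402 bp. MIR2118 microRNAs trigger phased small RNAs in grass anthers. Locus 326 (chr10:120368701-120373506, minus strand), which also matches an Activator-type transposase, had 0.676, 0.34 and 0.846 FPKM in pSC24, against 3.63, 1.83 and 3.02 FPKM in SC, and was the only one of these loci called (-2.20 ± 0.41, edgeR adjusted p = 0.00153). Locus 641 had 0.961, 0 and 0.198 FPKM in pSC24 and 1.66, 2.04 and 8.06 FPKM in SC, without overlap but short of the threshold (edgeR adjusted p = 0.0624). Locus 857 (chr4:49932799-49953200, minus strand) ended 1551 bases before locus 750, the next most abundant locus after locus 1283, on the other strand, and averaged 1.36 ± 0.0738 FPKM in pSC24 and 2.32 ± 0.192 FPKM in SC (SD, n = 3 each; edgeR adjusted p = 0.268).

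Locus 1554 (chr8:123005192-123371057, minus strand) was the longest both in exons, at 21191 bp, and in span, at 365866 bp. It overlapped Zm00001eb352480, a phosphatidylinositol 4-kinase match listed at 0.02 FPKM or less in every stage mean, and averaged 4.5 ± 1.96 FPKM in pSC24 and 3.13 ± 1.14 FPKM in SC (SD, n = 3 each), overlapping and not called. Whether so long a span joins several transcripts cannot be told from these tables.

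At the edge of the count rule, locus 373 and locus 1141 were inside, with 10 counts in the library that ranked the third, and locus 1544 and locus 912 outside, with 9. Locus 1544 had 93 counts in pSC24 replicate 3 but at most 13 elsewhere. Locus 373 reached its minimum through pSC18 replicate 3 and pSC24 replicates 2 and 3, with 14, 10 and 11 counts. Of the 1371 loci, 1090 had a library at the minimum in every stage, 181 in 3 stages, 85 in 2 and 15 in 1 only, and 417 loci stayed below the rule, 35 of them without any count.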

How the data were processed

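RNA-seq libraries were made from pooled maize synergid cells, 3 per stage. Per the labels and the study's methods, the authors trimmed reads with Cutadapt 1.15, mapped them with HISAT2 2.0.5 and counted fragments per gene with featureCounts 1.5.0-p3. The tool that defined the loci, the strand setting and the handling of multi-mapping reads are not given in the sources used here. The deposited files hold raw counts and FPKM values made by the authors from these counts and exon lengths.

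The loci and lists were chosen with earlier results of these data known. Counts were fitted with edgeR 4.0.16 (quasi-likelihood, TMM scaling, filterByExpr, 12 libraries in 1 fit, R 4.3.3), and p-values were adjusted by Benjamini-Hochberg over the 21143 rows tested within each comparison. 33 of the 1371 loci did not pass the filter. A locus minus its nearest annotated gene was fitted with limma 3.58.1 on log2(CPM + 1). RefSeq genes came from the table of the same assembly and were compared by position without strand. No per-stage test was made on FPKM values. The labels call the libraries biological replicates without saying whether the pools came from separate plants, so p-values measure the spread between these pools. Named loci were those with the highest FPKM in the whole set, in each match class and over 50 kb from a gene, the 3 largest called rises and falls per comparison with at least 5 FPKM and no overlap, the 3 largest opposite pairs, the longest locus, neighbours of genes named by the study, and the edges of the count rule. The steps were tested on simulated data. Alternatives were DESeq2 1.42.0, other scalings, no filter, a replicate block, a mapping set term and leaving out each library.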

Additional observations from a re-analysis of the deposited data

How the results depend on the processing

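In pSC24 vs SC, lower calls outnumbered higher calls under every alternative run. The counts left a 1.5-fold range only with the mapping set term (29 higher, 76 lower) and were 36 to 53 higher and 115 to 171 lower when 1 library was left out. In pSC24 vs pSC18, DESeq2 on 12 libraries gave 39 and 103, DESeq2 on 6 libraries 39 higher, and the mapping set term 10 and 25, with 16 to 23 and 31 to 62 when 1 library was left out. In pSC12 vs SC the counts were 22 and 26 (DESeq2, 12 libraries), 29 and 29 (6 libraries), 35 and 4 (library totals) and 0 and 0 (mapping set term), with 3 to 12 and 2 to 9 when 1 library was left out. In pSC18 vs pSC12 they were 5 and 14 (DESeq2, 12 libraries), 5 and 18 (6 libraries), 1 higher with DESeq2's size factors, 2 and 1 without the filter, and 0 to 1 in each direction when 1 library was left out. The cause was not tested, and outside pSC24 vs SC the shares of all rows were not counted under these alternatives. The pair count of 203 was 166 to 188 when 1 library was left out and 175 with a pseudocount of 0.1 CPM. A count minimum of 5 kept 1505 loci and one of 20 kept 1133. Without locus 1283 the share of counts was 1.46% in pSC12 and 1.25% in pSC24.

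Same-numbered libraries were not treated as paired in the main fit. Their deviations from the stage means correlated at -0.032 to 0.095, which does not tell whether the pools shared plants. With the replicate block, 45 loci were called higher and 157 lower in pSC24 vs SC, 18 and 49 in pSC24 vs pSC18, 7 and 7 in pSC12 vs SC and none in pSC18 vs pSC12; 194 pairs differed. Of the 38 fold changes of named loci that were called, no alternative reversed one, and 17 lost their call with the mapping set term. That term rests on the pSC24 libraries, as no other stage holds both sets. The median locus had 51.4 counts per library.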
